A study of Arabidopsis thaliana with 18 samples.

Results

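The promoters described here are the stretches of up to 500 bp upstream of each nuclear Arabidopsis gene start that lie on the chromosome arms. For each gene the 500 bp before its start were taken on its own strand, bases inside any other gene were removed, and the stretch was kept where at least 200 bp were left and where it lay outside the windows that hold the centromeres (chromosome 1, 13 to 17 Mb; chromosome 2, 1.5 to 6.5 Mb; chromosome 3, 11.5 to 16.0 Mb; chromosome 4, 1.5 to 6.0 Mb; chromosome 5, 10.0 to 14.5 Mb; TAIR10). This gave 22998 arm promoters of 24925 nuclear promoters with 200 bp or more left, the other 1927 lying in the excluded windows. The choice used positions only and no measured value. Of the arm promoters, 19958 belonged to protein-coding genes, 1829 to lncRNA genes, 335 to tRNA genes and 135 to miRNA genes.

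DNA methylation was measured by MethylC-seq, whole-genome sequencing after bisulfite conversion, in 3 strs2 and 3 WT plants, labelled as replicates of each genotype. The strs2 plants carried the T-DNA insertion SALK_028850 in the Col-0 background, a single line, in the gene of the RNA helicase STRS2, and the WT plants were Col-0. Transcript abundance was measured by mRNA-seq in 12 libraries, all from WT Col-0, with 3 libraries each in the naive plants given a triggering excess light (EL) treatment (N+T), the naive plants (N), the primed plants given the triggering EL treatment (P+T) and the primed plants (P). No strs2 plant was sequenced for mRNA, so methylation in strs2 and transcript abundance were never measured in the same genotype. All plants were 3 weeks old, were grown on soil under 100 to 150 µmol photons m-2 s-1 and were sampled as true leaves 4 to 9. EL was 1000 µmol photons m-2 s-1 for 1 h, and priming consisted of repeated daily EL exposures before the triggering treatment. By the methods of the study each replicate came from a separate plant, so the p-values measure the spread between plants.

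In plants, cytosines are methylated in 3 sequence contexts, CG, CHG and CHH, where H is A, C or T. CG methylation is copied at replication by MET1 with VIM proteins, CHG methylation is kept by CMT3, and CHH methylation is renewed by CMT2 or by RNA-directed DNA methylation (RdDM), in which small RNAs guide the methyltransferase DRM2. ROS1 and its relatives remove methylation. On chromosome arms most promoters carry little methylation, and methylated ones often lie close to transposable elements or repeats. Methylation levels are weighted levels, which are the methylated calls as a percent of all calls summed over the cytosines of a promoter that had a depth over 3.

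To show where in a promoter the methylation differed between strs2 and WT, 6 stretches of 220 bases were chosen among the promoters with the largest differences in each context, together with MEA, the imprinted gene whose promoter differed in the CG context. Within a promoter, the stretch was placed where the summed difference over cytosines that moved by at least 30 percentage points was largest. The shares of moved cytosines in the stretches are raised by this choice. Each is printed 5′ to 3′ on the strand of its gene, from the TAIR10.1 RefSeq assembly, whose cytosine contexts matched those of the deposited lists at all but 52 to 403 listed positions per plant and context. Capitals mark cytosines of either strand (a capital C for the printed strand, a capital G for the opposite strand) whose level, pooled over the 3 plants, differed between strs2 and WT by at least 30 percentage points with at least 10 calls in each genotype.
AT5G07295, gained in strs2, chr5:19830026-19830245: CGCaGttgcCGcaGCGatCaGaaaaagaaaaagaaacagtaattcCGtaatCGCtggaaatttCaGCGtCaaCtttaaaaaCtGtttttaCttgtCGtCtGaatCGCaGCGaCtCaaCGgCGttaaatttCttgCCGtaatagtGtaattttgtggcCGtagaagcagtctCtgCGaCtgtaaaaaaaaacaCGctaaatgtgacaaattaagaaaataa
UDG4, gained in strs2, chr5:15742179-15742398: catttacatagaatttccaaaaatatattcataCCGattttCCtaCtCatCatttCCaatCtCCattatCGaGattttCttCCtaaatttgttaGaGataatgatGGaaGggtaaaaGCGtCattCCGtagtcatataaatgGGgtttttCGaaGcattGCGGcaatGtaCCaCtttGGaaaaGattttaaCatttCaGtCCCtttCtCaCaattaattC
AT1G09583, gained in strs2, chr1:28470293-28470512: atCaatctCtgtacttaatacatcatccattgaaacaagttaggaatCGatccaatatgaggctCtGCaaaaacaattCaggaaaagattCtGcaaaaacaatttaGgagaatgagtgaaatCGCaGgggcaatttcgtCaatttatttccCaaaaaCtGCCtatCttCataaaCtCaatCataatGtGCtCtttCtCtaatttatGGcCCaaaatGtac
PKP-ALPHA, lost in strs2, chr3:8138685-8138904: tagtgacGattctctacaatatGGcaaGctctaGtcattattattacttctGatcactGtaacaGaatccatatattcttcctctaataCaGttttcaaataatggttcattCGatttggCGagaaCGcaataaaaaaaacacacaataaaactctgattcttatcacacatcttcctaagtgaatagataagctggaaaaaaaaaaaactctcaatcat
AT2G27770, lost in strs2, chr2:11834706-11834925: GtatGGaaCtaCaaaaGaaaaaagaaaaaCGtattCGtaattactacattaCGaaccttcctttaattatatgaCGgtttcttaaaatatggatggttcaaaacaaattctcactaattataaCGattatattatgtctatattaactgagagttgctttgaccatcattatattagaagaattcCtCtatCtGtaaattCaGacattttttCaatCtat
MEA, lost in strs2, chr1:544233-544452: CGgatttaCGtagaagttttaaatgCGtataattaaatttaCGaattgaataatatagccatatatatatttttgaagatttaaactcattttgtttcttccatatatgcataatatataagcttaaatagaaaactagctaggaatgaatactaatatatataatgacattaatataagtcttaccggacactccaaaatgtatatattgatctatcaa

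The stretches, each placed where its promoter moved most, differed in how much of the cytosine complement moved and in which context. In the AT5G07295 stretch, 274 to 55 bp upstream of the gene on the minus strand, 54 of the 85 cytosines with enough calls had gained methylation, 30 of them in the CG, 17 in the CHG and 7 in the CHH context. In the UDG4 stretch, 364 to 145 bp upstream on the plus strand, 57 of 72 cytosines had gained methylation, and 40 of these were in the CHH context. In the AT1G09583 stretch, 220 to 1 bp upstream on the minus strand, 37 of 75 had gained methylation, with 4 in the CG, 10 in the CHG and 23 in the CHH context. The 3 stretches with losses moved fewer cytosines. The PKP-ALPHA stretch, 500 to 281 bp upstream on the plus strand, had lost methylation at 16 of 50 cytosines, and the AT2G27770 stretch, 498 to 279 bp upstream on the minus strand, at 24 of 59. In the MEA stretch, 500 to 281 bp upstream on the plus strand, all 8 cytosines that moved of 52 were in the CG context. No stretch held cytosines that moved in the opposite direction.

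Depth, library size and tissue were checked across the series. The mean depth per CG cytosine of the arm promoters was 7.92, 8.20 and 7.25 in strs2 and 8.32, 6.82 and 10.1 in WT, and the promoters named with their calls show the numbers behind a level. The CHH level of the chloroplast genome, which carries no such methylation and so measures failed conversion and sequencing error, was 0.434 to 0.586%. The mRNA-seq libraries held 3665503 (N+T replicate 3) to 33081543 (P replicate 3) counts. N replicate 3 and N+T replicate 3 were left out of the tests, as in the methods of the study, and their values are given separately for only some of the genes named. The 4 leaf marker genes summed to 23540 to 50970 counts per 1000000 (CPM) in every library, against at most 0.141 CPM for the 2 root, 0.262 CPM for the 2 seed and 1.03 CPM for the 2 flower markers. The gene STRS2 itself had under 200 bp left upstream and is not among the promoters.

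Arm promoters carried little methylation in both genotypes. The weighted CG level over all arm promoters was 7.65, 8.0 and 8.07% in strs2, against 7.92, 7.33 and 7.80% in WT. The CHG level was 3.13, 3.53 and 3.42% in strs2, against 3.28, 3.26 and 3.30% in WT, and the CHH level 1.31, 1.53 and 1.42% against 1.40, 1.49 and 1.45%. The genotypes overlapped in every context. Mean CG levels were 7.91 ± 0.227% in strs2 and 7.68 ± 0.315% in WT (SD, n = 3 each), a difference of 0.224 points (two-sided exact permutation test, p = 0.5, adjusted p = 0.8). The differences were 0.0760 points for CHG (exact p = 0.6, adjusted p = 0.8) and -0.0299 points for CHH (exact p = 0.8, adjusted p = 0.8). No p below 0.1 can arise with 3 against 3 plants.

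Compared with promoters in the excluded windows of the same plants, arm promoters had lower levels in all 6 plants and in every context. CG levels averaged 7.79 ± 0.274% in arm promoters and 47.2 ± 0.743% in excluded-window promoters, CHG levels 3.32 ± 0.138% and 16.7 ± 0.791%, and CHH levels 1.43 ± 0.0767% and 4.15 ± 0.329% (SD, n = 6 plants each). Each difference had p = 0.03125 in an exact sign-flip permutation test over the 6 plants, two-sided, which is the smallest p the design allows and is also the adjusted p. Arm promoters were more highly methylated than the first 500 bp of their own genes, whose levels were 3.09 ± 0.0998% for CG, 1.34 ± 0.0616% for CHG and 0.705 ± 0.0409% for CHH (SD, n = 6; exact p = 0.03125 for each context).

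Along the promoter, methylation declined towards the gene start. In the 50 bp farthest from the gene, CG levels averaged 12.0% in strs2 and 11.8% in WT, and in the last 50 bp before the start 3.52% in strs2 and 3.4% in WT. CHG levels followed the same course, with 4.95% in strs2 and 4.86% in WT at the far end and 1.80% in strs2 and 1.72% in WT next to the start. CHH levels were 1.83% in strs2 and 1.85% in WT at 450 to 401 bp upstream, and reached 0.846% in strs2 and 0.861% in WT next to the start. The ranges of the genotypes overlapped along the whole promoter in the plotted profiles.

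**Figure D1:**
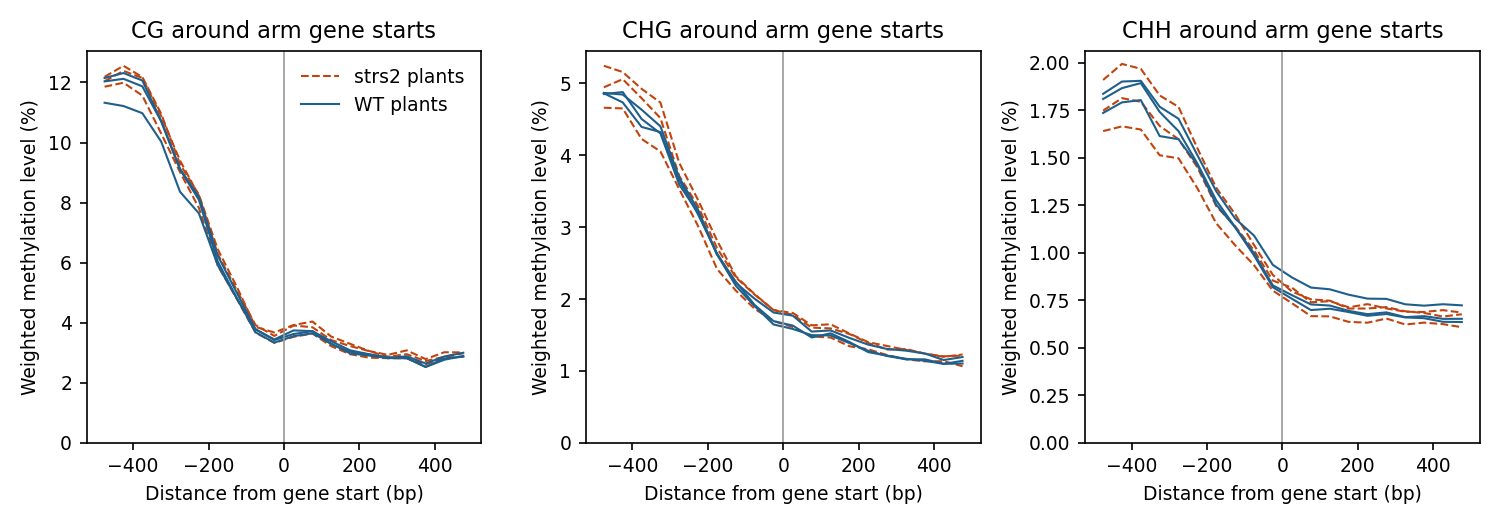
Weighted methylation level (percent of calls, vertical axes) in 50 bp bins by distance from the gene start (bp, horizontal axis) for CG, CHG and CHH, over the promoters and the first 500 bp of their genes. Each line is a plant, dashed for the 3 strs2 plants and solid for the 3 WT plants, and CG averages 3.52% in strs2 and 3.4% in WT in the last bin before the start, where the lines of the genotypes overlap.

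The low averages combined a large group of nearly unmethylated promoters with a small, highly methylated one. Among the 20760 arm promoters with at least 20 CG calls in every plant, 11.6 to 11.8% had a CG level of 20% or more in the strs2 plants and 11.1 to 11.9% in the WT plants. CHG levels of 10% or more were found in 8.11 to 8.43% of 20777 promoters in strs2 and 7.85 to 8.32% in WT, and CHH levels of 5% or more in 6.87 to 7.49% of 22787 promoters in strs2 and 6.82 to 7.24% in WT. The median CG level was 0 in 5 of the 6 plants and 0.391% in WT replicate 3. The range of CG levels among the 3 plants reached 30 points at 61 promoters in strs2 and at 103 promoters in WT.

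To describe the methylated promoters, the calls of the 3 WT plants were pooled and each promoter was placed in 1 of 3 classes. Promoters with a CHG level of 10% or more or a CHH level of 5% or more were called non-CG methylated, those with only a CG level of 20% or more were called CG only, and the rest were called low. The non-CG class held 2171 promoters (9.44%), the CG-only class 804 (3.5%) and the low class 19465 (84.6%), and 558 (2.43%) had under 20 calls in some context. In the non-CG class, CG levels averaged 57.6% in strs2 and 57.6% in WT, CHG levels 29.7 ± 1.21% in strs2 and 29.9 ± 0.0593% in WT, and CHH levels 10.5 ± 0.887% in strs2 and 10.9 ± 0.171% in WT (SD, n = 3 each). In the CG-only class, CG levels averaged 43.4 ± 0.381% in strs2 and 44.3 ± 1.73% in WT, with CHG at 4.2% in strs2 and 3.62% in WT. In the low class, CG levels averaged 0.830% in strs2 and 0.760% in WT. Since the classes were set from WT, small shifts of strs2 away from them are built into the choice and no test is given.

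Most promoters kept their class in strs2. By the pooled strs2 calls, 2039 of the 2171 non-CG promoters (93.9%), 608 of the 804 CG-only promoters (75.6%) and 19285 of the 19465 low promoters (99.1%) were placed in the same class. The CG-only class also had the smallest share placed alike in single WT plants. Here 381 promoters (47.4%) were CG only in each of the 3 plants taken alone, against 1560 (71.9%) for the non-CG class. A promoter with under 20 calls in some context in a plant counted as outside its class there. Lack of calls and differences in level are therefore not told apart in these shares. Of the low promoters, 46 were non-CG methylated and 117 were CG only in strs2. Of the non-CG promoters, 58 were low and 68 were CG only in strs2.

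Features that did not enter the classes differed between them. Bases of annotated pseudogenes, which do not appear in the count tables, were found in 123 non-CG promoters (5.67%), 21 CG-only promoters (2.61%) and 226 low promoters (1.16%). The full 500 bp were left in 88.2% of non-CG, 88.4% of CG-only and 72.9% of low promoters, and promoters shared bases with another arm promoter in 16.8, 14.2 and 24.1% of these classes. The median GC content was 29.0, 26.4 and 30.2%. The start of the gene was usually low even behind a methylated promoter. Of the 2171 non-CG promoters, 459 led into a gene whose first 500 bp were non-CG methylated, 48 into a CG-only and 1557 into a low start. For the 804 CG-only promoters these numbers were 97, 49 and 625, and for the 19465 low promoters 202, 279 and 18209. A non-CG methylated start was thus a larger share behind non-CG and CG-only promoters than behind low ones.

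By gene type, 9.27% of promoters of protein-coding genes were non-CG methylated, against 11.5% for lncRNA, 12.0% for tRNA, 7.41% for miRNA and 2.17% for snoRNA genes, which guide RNA modification. The highest shares among types with over 100 classified promoters were 17.9% of 156 for ncRNA and 17.1% of 316 for misc_RNA, as RefSeq names these types. Too few calls were found at 77 tRNA promoters, beside 258 that were classified. By chromosome, the non-CG share was between 9.10% (chromosome 3) and 11.4% (chromosome 2). The share varied far more with distance from the excluded windows. It was 25.5% of 2076 classified promoters within 1 Mb, 17.1% of 2054 at 1 to 2 Mb, 11.3% of 3725 at 2 to 4 Mb, 7.46% of 7430 at 4 to 8 Mb and 4.42% of 7155 at 8 Mb or more. The CG-only share fell along the same distances, to 1.77% in the farthest promoters, against 9.06% within 1 Mb.

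**Figure D2:**
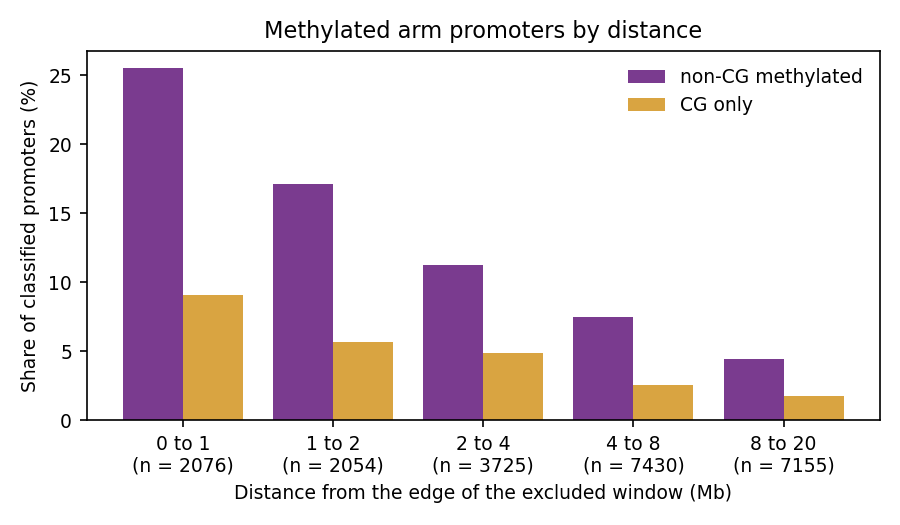
Share of arm promoters in the non-CG and CG-only classes of WT (percent, vertical axis) by distance of the promoter from the edge of the excluded window on its chromosome (Mb, horizontal axis). The non-CG share is 25.5% within 1 Mb and 4.42% at 8 Mb or more.

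The 223 arm promoters just inside the length rule, with 200 to 209 bp left, had CG levels of 2.95% in strs2 and 2.92% in WT, and the 219 stretches just outside it, with 190 to 199 bp left, 1.93% in strs2 and 2.14% in WT. A further 2731 of the 30897 nuclear loci on the arms had no base left, because another gene covered the whole 500 bp. Of the arm promoters, 5373 (23.4%) shared bases with another one, and these are not independent of their partner.

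To ask which single promoters differed between strs2 and WT, calls were compared per promoter with limma, with Benjamini-Hochberg adjustment over all nuclear promoters tested. In the CG context 157 of 3887 arm promoters tested were higher in strs2, where 3.66% of all nuclear promoters tested were higher, and 190 were lower, where 4.21% of all were lower. In the CHG context 21 of 2716 were higher and 13 lower, against 0.646% and 0.485% of all nuclear promoters tested. The 13 CHG losses became 8 without WT replicate 3, 23 without WT replicate 2 and 20 without strs2 replicate 3. In the CHH context 4 of 21849 were higher and 3 lower, against 0.0169% and 0.0127%. These shares lay near those of all nuclear promoters tested, most of which are the arm promoters themselves, so part of the nearness is built in. For CG, the 3887 arm promoters are among the 5054 tested in all. A comparison with excluded-window promoters alone is not given. Promoters were tested only with at least 10 methylated and 10 unmethylated calls over the 6 plants, which 16540 of the 20427 arm promoters with enough CG calls did not reach because they were nearly unmethylated.

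The called promoters moved by small to large amounts, from 1.11 to 84.6 points for the CG gains and from -2.15 to -79.6 points for the CG losses. The median difference was 14.9 points for the CG gains and -14.9 points for the CG losses, with 53 gains and 79 losses of 20 points or more. In the gains the median CG level was 16.5% in strs2 and 0.832% in WT, and in the losses 0.800% in strs2 and 16.0% in WT. The plants of the genotypes did not overlap at any of the 157 CG gains and at 189 of the 190 CG losses. The calls were made on these same plants and favour separated promoters, so the separation is no further support for them. Of all nuclear promoters tested for CG, 20.6% had no overlap. Of the 157 CG gains, 138 were low in WT, and of the 190 CG losses, 104 were low, 57 CG only and 29 non-CG methylated in WT. Of the 3887 promoters tested, 48 lay within 1 Mb of STRS2 itself, and 5 of these were called in either direction (10.4%), against 8.93% of all arm promoters tested.

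**Figure D3:**
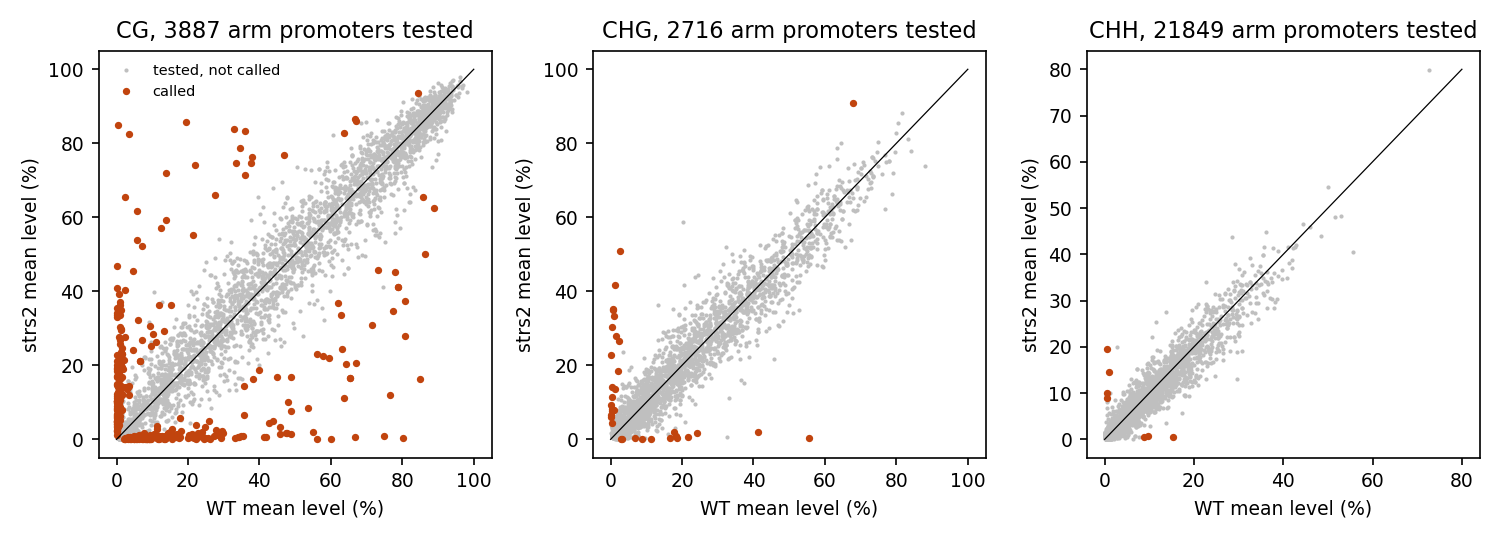
Mean methylation level in strs2 (percent, vertical axis) against WT (percent, horizontal axis) for each arm promoter tested, in panels for CG, CHG and CHH, with called promoters in red and the diagonal marking equal levels. The called CG promoters number 157 above and 190 below the diagonal, the CHG ones 21 and 13, and the CHH ones 4 and 3.

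Most CHG calls and all 7 CHH calls were at promoters also called in CG in the same direction. Of the CG gains, 16 were also called as CHG gains and 4 as CHH gains, and of the CG losses, 9 were also called as CHG losses and 3 as CHH losses. The remaining 5 of 21 CHG gains and 4 of 13 CHG losses were not called in CG. Of the 356 promoters called in any context, 329 were called in 1 context, 22 in 2 and 5 in all 3. The promoters called in all 3 were those of AT2G06995, AT3G04390 and UDG4, which gained, and PKP-ALPHA and AT4G17580, which lost methylation in strs2.

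The largest CG gain was at the promoter of the lncRNA gene AT5G07295 (chr5:19829972-19830471, minus strand), shown among the sequences. Its CG level was 86.6, 82.6 and 86.0% in strs2, against 0.346, 0.833 and 0.249% in WT. The difference of 84.6 points rested on 149 to 401 calls per plant (limma adjusted p = 1.22e-05), and the genotypes were far apart. CHG rose with it, at 28.0, 39.3 and 37.3% in strs2 against 0.625, 1.16 and 0.217% in WT (limma adjusted p = 0.000523). CHH was 3.19, 9.63 and 11.6% in strs2 against 0.307, 0.424 and 0.709% in WT and did not pass (limma adjusted p = 0.0522). The gene had 0 CPM in all 12 mRNA-seq libraries.

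The lncRNA genes AT2G06995 and AT1G06093 followed. At the AT2G06995 promoter (chr2:7632714-7633213), CG was 76.9, 91.2 and 79.5% in strs2 against 3.03, 7.14 and 0% in WT (limma adjusted p = 0.0002), CHG 35.5, 45.5 and 44.3% against 2.08, 1.79 and 0%, and CHH 10.8, 19.5 and 13.5% against 1.26, 0.406 and 1.32%. All contexts were separated, although the CG level rested on only 26 to 42 calls per plant. At the AT1G06093 promoter (chr1:9572690-9573189), CG was 89.4, 89.4 and 78.8% in strs2, against 27.1, 12.1 and 19.5% in WT (limma adjusted p = 0.000421). This promoter was already CG methylated in WT and had CHG at 29.0, 39.3 and 31.4% in strs2 against 1.14, 0 and 1.75% in WT.

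The largest CG loss was upstream of AT2G27770, a protein-coding gene with a DUF868 domain (chr2:11834428-11834927, minus strand). CG was 0, 1.45 and 0% in strs2, against 87.7, 77.1 and 75.5% in WT, with 35 to 94 calls per plant (difference -79.6 points, limma adjusted p = 2.3e-05). Here the non-CG methylation of WT was uneven between plants. CHG was 0, 0 and 2.22% in strs2 against 47.8, 0 and 50.0% in WT (limma adjusted p = 0.383), and CHH 0.244, 1.07 and 0.509% against 10.5, 2.32 and 9.93% (limma adjusted p = 0.257). WT replicate 2 thus had the CG but not the CHG methylation of the other WT plants.

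Upstream of SKP1, which encodes a subunit of SCF ubiquitin ligases, CG was 0.830, 0.444 and 0.752% in strs2 and 66.7, 60.3 and 73.3% in WT (limma adjusted p = 1.5e-05). The promoter shares most of its bases with that of the opposite gene AT1G75945, where CG was 0.824, 0.312 and 1.32% in strs2 and 77.4, 67.5 and 80.1% in WT, so both describe a single region. In WT, where this region was methylated, SKP1 had 201 and 191 CPM in N. AT5G44578 also lost CG methylation, with 14.5, 13.4 and 21.0% in strs2 against 84.3, 83.7 and 87.0% in WT (limma adjusted p = 0.000113), and kept a low level rather than none.

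UDG4, a UDP-glucose dehydrogenase that makes cell wall sugar precursors, had the largest CHH gain (chr5:15742043-15742542, plus strand). CHH was 20.6, 18.5 and 19.1% in strs2, against 0.350, 0.985 and 0.562% in WT (difference 18.8 points, limma adjusted p = 0.0037). CHG was 29.0, 38.6 and 37.8% in strs2 against 1.64, 0 and 0% in WT, and CG 47.8, 49.0 and 43.9% in strs2 against 0% in every WT plant. All 3 contexts were present in every strs2 plant and near 0 in every WT plant. The gene had 37.2 and 39.2 CPM in N, where the promoter was unmethylated.

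The largest CHG gain was upstream of the ncRNA gene AT1G09583 (chr1:28470293-28470792, minus strand). CHG was 39.1, 61.5 and 52.3% in strs2, against 2.96, 1.94 and 3.02% in WT (difference 48.3 points, limma adjusted p = 0.000499), on top of CG methylation present in both genotypes, 80.2, 80.2 and 75.9% in strs2 and 28.0, 39.8 and 35.6% in WT. CHH was 21.7, 23.5 and 14.4% in strs2 against 2.01, 2.5 and 3.69% in WT, which did not pass (limma adjusted p = 0.0551).

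PKP-ALPHA, the alpha subunit of plastidial pyruvate kinase, had the largest CHG and CHH losses (chr3:8138685-8139184, plus strand). CG was 0% in every strs2 plant, against 61.2, 61.0 and 58.1% in WT. CHG was 1.16, 0 and 0% in strs2 against 52.6, 52.8 and 61.6% in WT (difference -55.3 points, limma adjusted p = 0.000108), and CHH 0.338, 0.317 and 1.15% against 13.1, 15.3 and 17.2% (difference -14.6 points, limma adjusted p = 0.0068). A promoter methylated in all contexts in WT was thus nearly free of methylation in strs2. In this promoter 281 bases belong to the pseudogene AT3G22955, and the gene had 243 and 273 CPM in N.

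Other promoters with large losses were those of EMB2654, AT4G17580 and AT4G15970. EMB2654 had CHG at 1.67, 0 and 4.55% in strs2, against 46.0, 46.3 and 31.9% in WT (limma adjusted p = 0.00537). AT4G17580, of the Bax inhibitor-1 family, had CHH at 0.348, 0.615 and 0.885% in strs2 against 8.04, 7.30 and 13.7% in WT (limma adjusted p = 0.0217). At AT4G15970 CHH was 0.529, 0.459 and 0.547% in strs2, against 11.3, 4.2 and 10.7% in WT (limma adjusted p = 0.0245). The remaining CHH gains were at AT3G04390 and PKS1, of which PKS1 acts with phytochrome and phototropin in light responses. AT3G04390 had CHH at 12.5, 11.3 and 6.53% in strs2 against 0.113, 0.858 and 0.594% in WT (limma adjusted p = 0.0248). PKS1, named after its values were seen, had 9.94, 9.61 and 7.39% in strs2 against 0.651, 0.362 and 0.361% in WT (limma adjusted p = 0.0068).

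**Figure D4:**
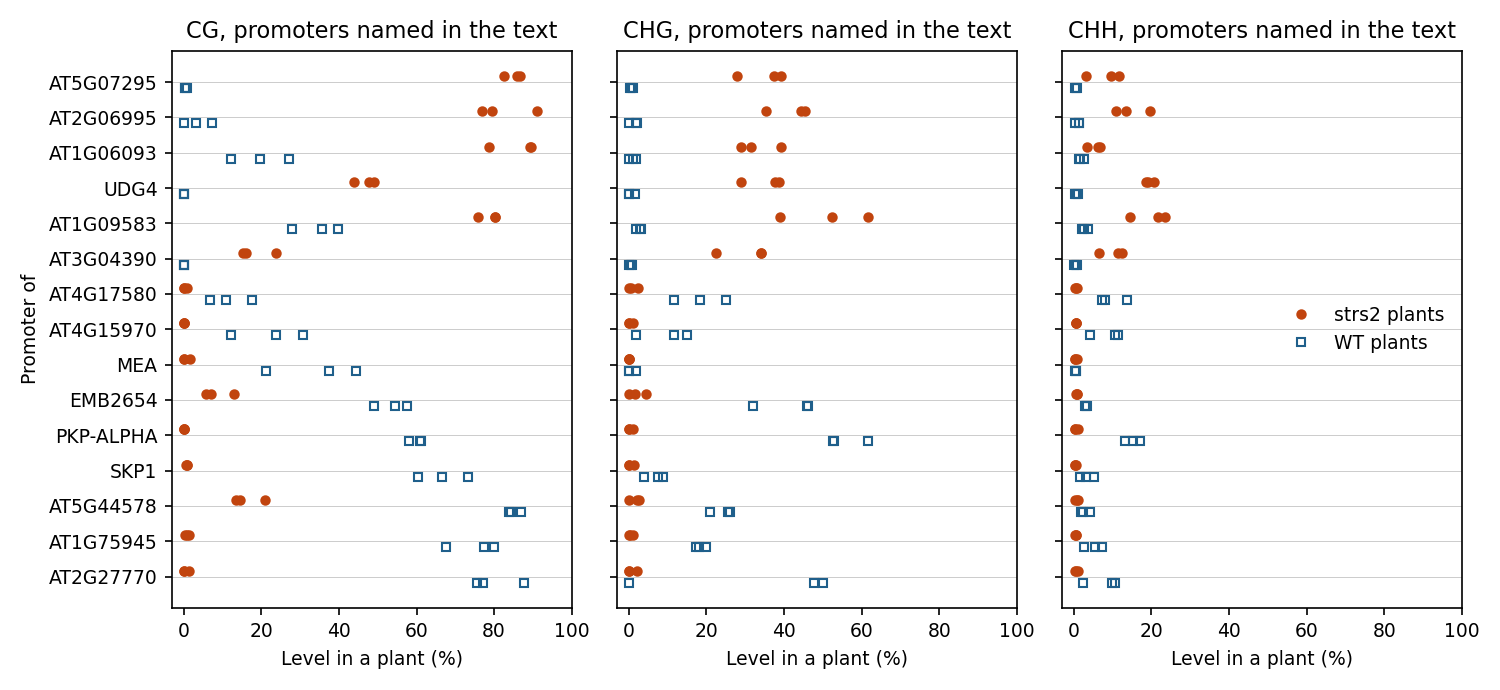
Methylation level in each plant (percent, horizontal axis) at the promoters with the largest gains and losses in strs2 and at MEA (vertical axis), in panels for CG, CHG and CHH; filled circles are strs2 plants, drawn above the open squares of the WT plants. At UDG4 all strs2 plants have 18.5 to 20.6% CHH and all WT plants at most 0.985%, and at PKP-ALPHA the WT plants have the higher levels.

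The CHH calls depended on single plants. Without strs2 replicate 1 or replicate 2, or without WT replicate 3, 1 gain and no loss passed the limma test, and without WT replicate 1, 2 gains and 1 loss. At an unadjusted limma p under 0.05 the fits with no loss had 375, 355 and 357 gains and 636, 714 and 682 losses. These were of 21071, 20993 and 20516 promoters tested. Where nothing differs, a share of 0.05 of the tests falls under this threshold, so these counts are not evidence of further changes. The UDG4 gain in CHH passed in all 13 alternative fits in which it could be tested, and the PKP-ALPHA loss in CHH in 11 of 14.

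Genes known for methylated promoters or 5′ regions formed a first list, of which 10 of 11 had an arm promoter. MEA, an imprinted Polycomb gene of the endosperm, was the single member called. Its promoter (chr1:544233-544732) had CG at 0, 0 and 1.59% in strs2, against 37.5, 21.3 and 44.4% in WT (difference -33.9 points, limma adjusted p = 0.000347), with 61 to 142 calls per plant. CHG and CHH were under 2% in every plant, and MEA had 0 CPM in the 3 N libraries. FWA, an imprinted gene silenced by its 5′ repeats, had CG at 57.8, 50.6 and 57.1% in strs2 and 49.4, 66.4 and 49.8% in WT, with overlapping values (limma adjusted p = 0.995). FWA had CHG at 0, 0 and 7.14% in strs2 and 6.78, 23.3 and 9.26% in WT, again with overlap (limma adjusted p = 0.378), and its promoter was CG only in strs2 and non-CG methylated in WT. Of the 3 CHG tests of the list, 2 had an unadjusted p under 0.05 in limma, and none was called in limma or edgeR. SDC, an F-box gene silenced through tandem repeats in its promoter, had CG at 88.2, 88.9 and 92.4% in strs2 and 91.5, 86.4 and 86.9% in WT, and CHG at 64.9, 70.7 and 79.4% in strs2 and 62.4, 51.2 and 58.7% in WT (limma adjusted p = 0.538). The demethylase gene ROS1, whose promoter methylation is known to raise its transcription, had CG at 30.1, 27.1 and 34.2% in strs2 and 31.5, 34.0 and 17.5% in WT (limma adjusted p = 0.893). The other 6 promoters of the list were low in WT.

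The promoters of the methylation machinery did not pass the test in strs2. In the RdDM list, 16 of 21 genes had an arm promoter, 12 of them low in WT, and none was called in limma or edgeR among the 4 tested for CG, 1 for CHG and 14 for CHH, of which 0, 0 and 2 had an unadjusted p under 0.05 in limma. NRPE1, the largest subunit of RNA polymerase V, had a CG-only promoter with 78.8, 78.3 and 81.1% in strs2 and 82.2, 79.5 and 80.0% in WT. DRD1, the chromatin remodeller of RdDM, had CG at 48.8, 61.5 and 59.1% in strs2 and 40.3, 63.1 and 58.3% in WT. Both overlapped between the genotypes. NRPD2, the subunit shared by RNA polymerases IV and V, was the single non-CG methylated one, with CHH at 18.5, 20.9 and 17.2% in strs2 and 10.5, 33.5 and 16.2% in WT. In the maintenance and removal list, 10 of 12 genes had an arm promoter, and the 2 that were not low were VIM1 and VIM3. None was called in limma or edgeR among the 3 tested for CG, 3 for CHG and 10 for CHH, of which 0, 2 and 1 had an unadjusted p under 0.05 in limma. VIM1 had CG at 41.0, 28.0 and 51.7% in strs2 and 48.1, 46.8 and 48.9% in WT (limma adjusted p = 0.732), and VIM3 had CHG at 2.27, 16.0 and 29.5% in strs2 and 35.3, 42.5 and 31.3% in WT (limma adjusted p = 0.515). Of the light harvesting and quenching genes 10 of 20, and of the stress response genes 11 of 12, had an arm promoter, and apart from LHCA3 all were low in WT. None of either list was called in limma or edgeR, with 1 CHH test of the light harvesting list and no test of the stress list at an unadjusted p under 0.05 in limma.

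To relate promoter methylation to transcript abundance, the protein-coding genes were compared by their WT promoter class in the N libraries, as CPM per kb of gene. These are bulk samples, in which fewer cells of a type and less RNA per cell cannot be told apart. Genes behind a non-CG methylated promoter (n = 1810) had medians of 2.36 and 2.25 CPM per kb in N replicates 1 and 2, those behind a CG-only promoter (n = 688) 1.42 and 1.19, and those behind a low promoter (n = 17027) 2.00 and 1.89. The shares with more than 1 CPM averaged 59.3, 55.8 and 60.7% in these classes. Genes of the non-CG and low classes lay close to each other, and genes of the CG-only class had the lowest medians. In N replicate 3 the medians were 1.15, 0.56 and 1.11 CPM per kb. Across 19525 protein-coding genes, Spearman's rho between promoter level and CPM per kb lay between -0.0237 and -0.00659 over the contexts and N libraries, where genes share library and depth.

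The picture changed with where the methylation lay. When the classes were set from the 200 bp next to the start alone, 46.8 and 46.4% of the genes with a non-CG class (n = 748) exceeded 1 CPM in N replicates 1 and 2, against 62.3 and 61.5% with a low class (n = 16234). Genes with a non-CG methylated promoter and a low start of the gene (n = 1409) exceeded 1 CPM in 74.1 and 72.7% of cases, against 62.6 and 61.8% for low promoters with a low start (n = 16264). Behind a non-CG promoter with a non-CG start (n = 315) the share was 6.35% in N replicate 1, and behind a low promoter with a non-CG start (n = 147) it was 12.9%. The split by the start of the gene was chosen after the values were seen. A low expressed share went with methylation of the start of the gene, with or without methylation of the promoter.

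By level, promoters with CG at 80 to 100% (n = 500) led into genes of which 44.4% exceeded 1 CPM in N replicate 1, against 61.6% for CG at 0 to 1% (n = 15074), whereas for CG at 40 to 60% (n = 560) the share was 64.8%. For CHH, the highest bin of 20 to 100% (n = 291) had 72.2%, above the 55.0% of the bin of 5 to 10% (n = 502). The order of the shares thus did not follow the methylation level in either context. For lncRNA genes, 3.4% behind a non-CG promoter (n = 206) exceeded 1 CPM in N replicate 1, against 4.07% behind a low promoter (n = 1522).

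**Figure D5:**
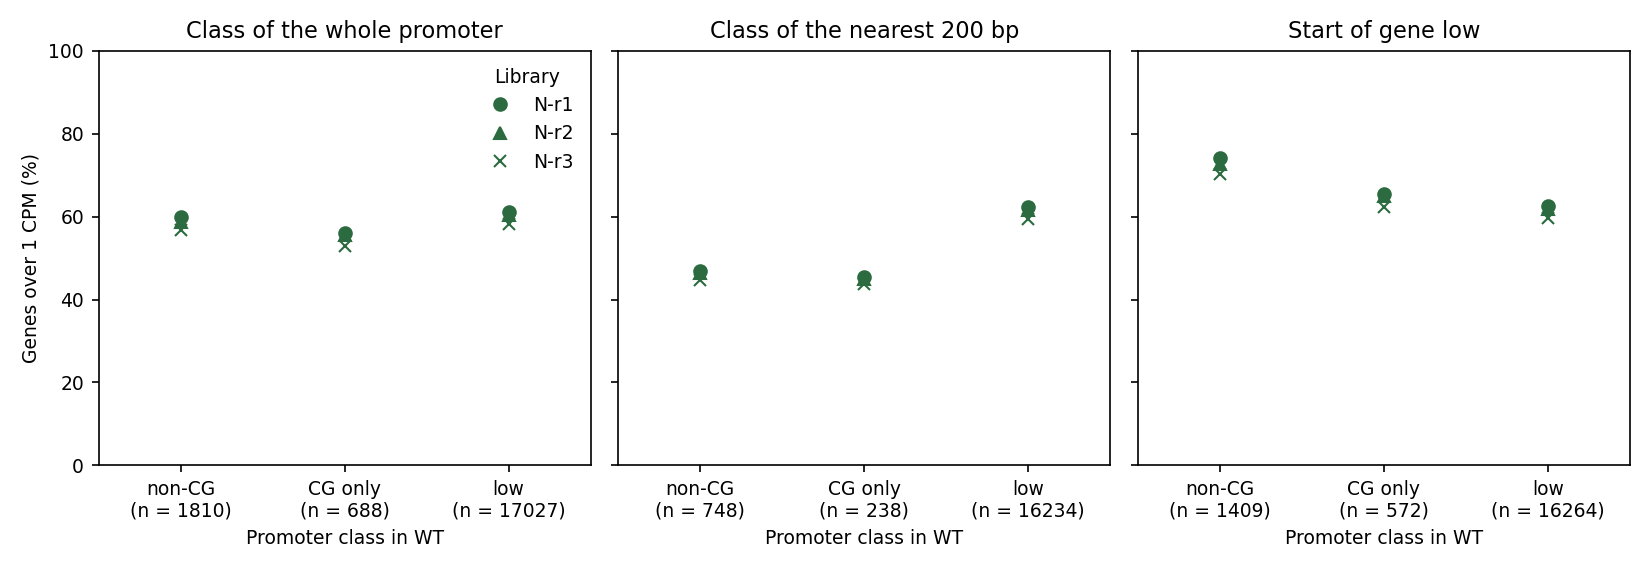
Share of protein-coding genes with more than 1 CPM (percent, vertical axis) by WT class (horizontal axis) in each of the 3 N libraries (symbols), with classes set from the whole promoter, with classes set from the nearest 200 bp, and with the promoter classes of genes whose first 500 bp are low. In N replicate 1 the non-CG share is 46.8% for the nearest 200 bp and 74.1% for genes with a low start.

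Among protein-coding genes of the non-CG class, the 5 with the highest CPM in N were LHCA3, PSAD-1, ESM1, PSI-P and GGT1. LHCA3, an antenna protein of photosystem I, had 4861 and 5711 CPM in N. Its promoter had 0% CG in every plant, CHG at 18.3, 12.6 and 10.9% in strs2 and 11.6, 9.52 and 19.8% in WT, and CHH at 19.4, 12.6 and 18.8% in strs2 and 17.6, 15.4 and 20.6% in WT. It thus combined CHG and CHH methylation with no CG methylation, and strs2 and WT overlapped. The CG level rested on 25 to 49 calls per plant, from as few as 4 cytosines in a plant. PSAD-1, a subunit of photosystem I, had 1922 and 2081 CPM in N, and PSI-P, a thylakoid protein that shapes the membrane, 1401 and 1509 CPM. The PSI-P promoter had CHH at 11.6, 24.7 and 33.5% in strs2 and 13.7, 27.9 and 22.3% in WT, a wide spread within each genotype. ESM1, which affects glucosinolate breakdown, had 1722 and 2058 CPM in N, and GGT1, a photorespiratory aminotransferase, 1255 and 1365 CPM.

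Among the loci tested for the response to EL, 1002 of 12603 with an arm promoter were higher in N+T than in N, where 7.82% of all loci tested were higher, and 1047 were lower, where 7.51% of all were lower (edgeR, adjusted p under 0.05). In P+T against P, 263 were higher and 366 lower, against 2.07% and 2.44% of all loci tested. Split by promoter class, 81 (7.30%) of 1110 loci with a non-CG promoter were higher and 73 (6.58%) lower in N+T, compared with 879 (8.07%) and 937 (8.60%) of 10897 loci with a low promoter. With a CG-only promoter 29 (7.36%) of 394 were higher and 19 (4.82%) lower. The median log2 fold change of each class lay between -0.0018 and 0.023 in N+T against N, and between -0.038 and 0.023 in P+T against P. In P+T the shares higher and lower were 2.43 and 3.15% for non-CG, 1.27 and 2.03% for CG-only and 2.1 and 2.93% for low promoters. The CG-only shares rest on few loci, with 19 lower in N+T and 5 higher in P+T, and the differences between classes were not tested. Of 139 loci whose promoter was called in strs2, 11 were higher and 10 lower in N+T than in N. Leaving out N replicate 2 removed the N+T calls almost entirely, to 0 higher and 1 lower, and without N replicate 1 there were 20 higher and 63 lower. Without N replicate 2, 1115 loci were higher and 1436 lower at an unadjusted p under 0.05. Without N+T replicate 1 there were 150 higher and 140 lower. In P+T against P, leaving out P replicate 1 raised the counts to 687 higher and 1001 lower. The other 5 libraries lowered them, to 91 and 112 without P replicate 2, 120 and 179 without P replicate 3, 119 and 117 without P+T replicate 1, 65 and 44 without P+T replicate 2, and 67 and 41 without P+T replicate 3.

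The largest rises in the non-CG class were of AT1G15670, CHX18 and ATAF2. AT1G15670, an F-box protein with Kelch repeats, had 43.6 and 14.9 CPM in N+T against 2.2 and 0.964 CPM in N (log2 fold change 4.44, SE 0.77, edgeR adjusted p = 0.0134). The libraries left out went the other way, with 2.73 CPM in N+T replicate 3 and 7.09 CPM in N replicate 3. CHX18, a cation/H+ exchanger, had 14.8 and 3.96 CPM in N+T against 0.412 and 0.785 CPM in N (log2 fold change 4.1, SE 0.98, edgeR adjusted p = 0.031). ATAF2, a NAC transcription factor of stress and defence responses, had 385 and 91.2 CPM in N+T against 25.5 and 18.3 CPM in N (log2 fold change 3.65, SE 0.80, edgeR adjusted p = 0.0236). For ATAF2 the third pair, with 48.9 CPM in N+T and 25.8 CPM in N, had the same order. Of 9 alternative fits, the rise passed in 5 for AT1G15670 and in 6 each for CHX18 and ATAF2, with the same direction in all. The ATAF2 promoter was methylated almost purely in the CHH context, at 24.1, 26.9 and 24.5% in strs2 and 20.8, 21.2 and 21.4% in WT, with CG at 0.870 to 2.69% and CHG at 0 to 1.34%. The first 500 bp of ATAF2 were also non-CG methylated in WT, so this expressed gene differs from most genes with such a start.

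The largest falls were of AT4G01670, AT1G53035 and AT3G27120. AT4G01670 had 0.131 and 1.5 CPM in N+T against 8.17 and 10.3 CPM in N (log2 fold change -3.12, SE 0.74, edgeR adjusted p = 0.0304), and it also fell in P+T, with 1.71, 0.605 and 0.799 CPM against 5.23, 8.58 and 7.71 CPM in P (log2 fold change -2.82, edgeR adjusted p = 0.036). AT1G53035 had 1.31 and 6.09 CPM in N+T against 24.0 and 30.7 CPM in N (log2 fold change -2.65, edgeR adjusted p = 0.0347). ESM1 fell as well, to 616 and 630 CPM in N+T, against 1722 and 2058 CPM in N (log2 fold change -1.43, edgeR adjusted p = 0.0199). For ESM1 the libraries left out went the other way, with 1433 CPM in N+T replicate 3 and 1196 CPM in N replicate 3. For AT4G01670 and AT1G53035 they kept the order, with 0.27 and 5.7 CPM in N+T replicate 3 against 15.5 and 57.6 CPM in N replicate 3. In the primed plants ESM1 had 947, 960 and 1131 CPM in P+T and 761, 988 and 1098 CPM in P, which overlapped. Of 9 alternative fits in N+T, the fall passed in 6 for AT4G01670 and in 4 for ESM1, and the AT4G01670 fall in P+T passed in 4 of 11, with no reversal.

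VIM1, which binds hemimethylated CG sites for MET1, was higher after triggering in both pairs of groups, among the libraries tested. It had 33.1 and 27.8 CPM in N+T against 12.0 and 10.3 CPM in N (log2 fold change 1.63, SE 0.23, edgeR adjusted p = 0.00828). In primed plants it had 30.1, 26.1 and 19.2 CPM in P+T against 6.59, 5.84 and 4.75 CPM in P (log2 fold change 2.15, SE 0.19, edgeR adjusted p = 0.00497), and no library of one group reached the other. The P+T rise passed in 10 of 11 alternative fits and the N+T rise in 6 of 9. VIM3 was lower in N+T, with 2.22 and 1.36 CPM against 5.15 and 5.25 CPM in N (log2 fold change -1.40, SE 0.34, edgeR adjusted p = 0.0329), while N replicate 3 had 1.53 CPM. ROS1 had 49.5 and 52.1 CPM in N+T and 59.0 and 60.6 CPM in N and did not pass (edgeR adjusted p = 0.878). In N replicate 3 ROS1 was at 2.36 CPM, far from the other libraries. The 2 promoters with the largest methylation changes whose genes passed in N+T were AT2G27770, at 1.83 and 4.15 CPM in N+T against 7.82 and 9.89 CPM in N (edgeR adjusted p = 0.0326), and AT2G06995, at 0.523 and 0.55 CPM in N+T against 1.85 and 1.79 CPM in N (edgeR adjusted p = 0.0174).

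The lists were also counted in the response to EL, with genes outside the rule for named promoters picked after their values were seen. In the maintenance and removal list, 4 of 9 loci tested were higher and none lower in P+T than in P, where 2.07% and 2.44% of all loci tested were. Besides VIM1 these were MET1, CMT3 and the H3K9 methyltransferase gene SUVH4, all with low promoters. MET1 had 24.1, 23.3 and 26.7 CPM in P+T against 14.5, 15.4 and 13.0 CPM in P (log2 fold change 0.80, SE 0.18, edgeR adjusted p = 0.0423). CMT3 had 13.1, 12.8 and 10.5 CPM in P+T against 10.1, 6.75 and 6.93 CPM in P (log2 fold change 0.65, SE 0.14, edgeR adjusted p = 0.0423). SUVH4 had 9.57, 8.67 and 9.07 CPM in P+T against 6.78, 5.52 and 4.78 CPM in P (log2 fold change 0.70, SE 0.15, edgeR adjusted p = 0.0374). The 3 P+T libraries lay above the 3 P libraries for each of the 4 genes. Of 11 alternative fits in P+T, MET1 passed in 4 and CMT3 and SUVH4 in 3 each, always with the same direction. With all 12 libraries in the fit their edgeR adjusted p was 0.693, 0.740 and 0.677, and none of these 3 genes passed without P replicate 2, without P replicate 3 or without any single P+T library. In N+T against N, 1 of the 9 was higher (VIM1) and 2 lower (VIM3 and the demethylase gene DML3), where 7.82% and 7.51% of all loci tested were. The VIM3 and DML3 falls each passed in 4 of 9 alternative fits. In the naive plants MET1 had 24.5 and 18.3 CPM in N+T and 25.2 and 29.7 CPM in N, so the order seen in primed plants was not present there, and the difference between the contrasts was not tested. Of the 15 RdDM genes tested none passed in either contrast by edgeR or DESeq2, with 3 at an unadjusted edgeR p under 0.05 in N+T and 0 in P+T.

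In the stress response list, whose arm promoters were all low, 4 of 9 loci tested were higher and 1 lower in N+T, and 1 was higher and 1 lower in P+T. Of all loci tested, 7.82% were higher and 7.51% lower in N+T, and 2.07% and 2.44% in P+T. APX1, the cytosolic ascorbate peroxidase, had 2630 and 2804 CPM in N+T against 1030 and 817 CPM in N (log2 fold change 1.73, SE 0.34, edgeR adjusted p = 0.0179), and 2024, 2258 and 2036 CPM in P+T against 818, 325 and 556 CPM in P (log2 fold change 1.95, SE 0.28, edgeR adjusted p = 0.0111). These rises passed in 6 of 9 alternative fits in N+T and in 9 of 11 in P+T. The other rises in N+T were of APX2, ZAT12 and DREB2A, and the falls were of CBF3 in N+T and CBF2 in P+T. APX2, a heat- and light-induced ascorbate peroxidase, had 8.37 and 1.06 CPM in N+T and 0 CPM in all N libraries. In the light harvesting list 1 of 9 loci tested passed in N+T, LHCB1.2, with 1429 and 1337 CPM in N+T against 5170 and 5392 CPM in N (log2 fold change -1.76, SE 0.40, edgeR adjusted p = 0.027). DESeq2 called 5 of the 9 in N+T and 2 in P+T, where edgeR called none and 4 had an unadjusted p under 0.05.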

How the data were processed

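MethylC-seq covered 3 strs2 and 3 WT plants, and mRNA-seq 12 WT libraries. The authors trimmed the MethylC-seq reads with Trim Galore 0.3.7 and cutadapt 1.9 and aligned them to TAIR10 with Bismark 0.14.5 and Bowtie2 2.2.9. The deposited values are counts of methylated and of all calls per cytosine, and the deposited percent columns were not used. The authors aligned the mRNA-seq reads with Subread 1.6.2 and deposited counts per locus from featureCounts, with no normalization. Failed conversion, about 0.5% of calls by the chloroplast, was not subtracted.

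Cytosines with a depth over 3 in a plant were kept, as in the methods of the study, and calls were summed per promoter. Genotype means were compared by two-sided exact permutation tests. Single promoters were compared with limma 3.58.1 (R 4.3.3) on log2((methylated + 1)/(unmethylated + 1)), with a pseudocount of 1. A promoter was tested with at least 20 calls from 4 cytosines in every plant and at least 10 methylated and 10 unmethylated calls in all. Adjusted p-values (Benjamini-Hochberg, threshold 0.05) were taken over all nuclear promoters tested in a context. On simulated data, limma recovered 98.5% of gains of 40 points in CG, 76.8% of 30 points in CHG and 76.5% of 10 points in CHH, with 9, 7 and 1 false calls. No losses were simulated. The spread between simulated plants was set in advance and not fitted to these plants. Recovery and false calls at promoters that varied more between plants are therefore not known. Counts were compared with edgeR 4.0.16 (quasi-likelihood, TMM) over 10 libraries, without N replicate 3 and N+T replicate 3, on nuclear loci that passed 1 CPM in 3 or more of them, after removing organelle and 4 rRNA loci. Other depth minimums, windows, tests and scalings, DESeq2 1.42.0 and leaving out single samples were tried as alternatives.

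Named promoters were the 3 largest gains and losses per context without overlap of the plants, members of the gene lists that were called or not low, and in the non-CG class the 5 most abundant genes and the 3 largest rises and falls in N+T. The promoters and lists were chosen with earlier results of these data known. Gene names came from RefSeq TAIR10.1, which matched 22926 of the 22998 loci. Transposable elements were not used here.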

Additional observations from a re-analysis of the deposited data

How the results depend on the processing

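Direction and side of the threshold were kept in most recomputations. The strs2 minus WT level changed sign for CG with the mean of promoter levels (-0.00501 points) and for CHH with a depth of at least 10 (0.0117 points) or minus the chloroplast level (0.0117 points), and leaving out plants gave 0.0456 to 0.353 points for CG, -0.00805 to 0.191 for CHG and -0.0856 to 0.0247 for CHH. Arm minus excluded-window levels with 5 plants were -39.6 to -39.2, -13.5 to -13.1 and -2.77 to -2.65 points, where the smallest p is 0.0625. In the limma counts, a depth of at least 10 left 147 CG and 40 CHG promoters tested with 0 and 1 CG and 0 and 0 CHG calls (4, 11, 3 and 2 at an unadjusted p under 0.05). 1000 bp gave 250 CG gains and 6 CHH losses, all listed cytosines 25 CHG losses and 8 CHH gains, edgeR 26 CHG losses and 12 and 11 CHH calls, and arcsine 7 CHH gains. At 1000 bp only 103 of the 157 CG gains and 116 of the 190 CG losses were called again, and 12 of these promoters changed sign. Of the CHH calls, 1 of 4 gains and 3 of 3 losses were called again. The CG loss called at a depth of at least 10 was not among the CG losses of the main fit. Leaving out plants gave 131 to 177 and 160 to 205 CG, 16 to 26 and 8 to 23 CHG, and 1 to 3 and 0 to 2 CHH gains and losses. The share over 1 CPM, non-CG minus low (-1.43 points), was -2.01 with halved and -0.102 with doubled thresholds, -3.61 over all members, -0.414 with 1000 bp, -15.3 with 200 bp and 11.2 among genes with a low start, an alternative chosen after seeing the data. CG only minus low (-4.90 points) was -5.35, -8.82, -5.53, -7.12, -16.7 and 3.07. Leaving out N libraries gave -1.56 to -1.30 and -5.03 to -4.76. For EL, all 12 libraries gave 240 higher and 300 lower in N+T and 65 and 54 in P+T, DESeq2 1883 higher in N+T and 624 and 1005 in P+T, and leaving out libraries 0 to 1189 and 1 to 796 in N+T and 65 to 687 and 41 to 1001 in P+T. The cause of these shifts was not tested.

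The correlations of deviations from the group means could not settle whether replicate numbers pair the samples. For N+T with N, with 2 libraries used per group, the deviations mirror each other, so only 0.166 or -0.166 could occur. Same-numbered samples had correlations of deviations of -0.0205 to 0.0562 for methylation, 0.166 for N+T with N and 0.288, -0.0156 and -0.216 for P+T with P, where the highest, 0.542, was between P+T replicate 3 and P replicate 2. With the replicate block, strs2 minus WT levels had an exact p of 0.75, CHH gains fell to 2 and P+T losses to 217, and the other counts stayed within 1.5 times.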

Other observations

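Methylation in the CHH context without CG methylation was rare. Of 1003 arm promoters with a CHH level of 10% or more in WT, 46 (4.59%) had CG under 5%, and 17 (1.69%) had both CG and CHG under 5%. These promoters were picked after their values were seen. Besides ATAF2 they included AT1G58150, with CHH at 29.2, 33.0 and 19.5% in strs2 and 32.2, 12.2 and 26.3% in WT, and UGP2, a UDP-glucose pyrophosphorylase, with 15.1, 18.1 and 16.8% in strs2 and 17.1, 20.6 and 24.3% in WT. Of the 14 protein-coding genes among the 17, 10 exceeded 1 CPM in N. Some of the 17 rested on few cytosines, with as few as 1 CG cytosine in a plant at BXL3 and 1 CHG cytosine at JKD, NRPB3 and MLH3. ATAF2 had at least 15 CG and 23 CHG cytosines in every plant.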
